A study of Mus musculus with 3 samples.

Results

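The 10 genes described here, *Fos*, *Fosb*, *Jun*, *Junb*, *Jund*, *Egr1*, *Atf3*, *Ier2*, *Ier3* and *Nr4a1*, are immediate early genes of the mouse, chosen as a list of symbols, each found once among the 27998 genes of the deposited count tables. They were followed in non-cardiomyocytes of the ventricles of wild-type C57BL/6JJcl mice in 3 phases: healthy (0 weeks), adaptive hypertrophy (2 weeks of transverse aortic constriction, TAC, a ligature around the aortic arch that overloads the left ventricle) and heart failure (12 weeks of TAC). The study's methods give male mice of 8 weeks at surgery, and the number of animals behind a library is not given in the sources used here. The cells of every phase were released with warm collagenase, depleted of red cells, treated with CellCover and passed over Percoll, and each phase is 1 droplet library. Phase and library therefore cannot be told apart, no test between phases was possible, and every interval below is a 95% interval for counting error only.

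Immediate early genes are switched on within minutes of a stimulus without new protein synthesis, through kinase cascades that act on factors already bound at their promoters. Their products are mostly transcription factors that set the later response, and their RNAs are short-lived. In the heart they are known to respond to mechanical load, hormones and ischemia, and in isolated cells also to the warm enzymatic digestion by which the cells are released. A level in these libraries is a level after that digestion, and what the cells carried before it was not measured.

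Most of the 10 genes are compact. By the GENCODE M21 annotation of GRCm38, 4 of the 10 (*Jun*, *Junb*, *Jund* and *Ier2*) have a single exon, against 6.68% of 21497 coding genes of the table. For each gene, transcripts that the annotation tags as principal were taken first, and among equals the longest coding part decided. The median member transcript spans 3286.5 bases of the genome, against 16002 over those genes. The pentamer ATTTA, which is part of the sequences known to shorten the life of an RNA, occurs 2.62 times per 1000 bases of the members' 3′ untranslated regions and 1.94 times over all coding genes, and *Ier3* has the most (5 in 613 bases) and *Ier2* none in 755. *Fos* lies on chromosome 12 (85473890 to 85477273, plus strand), *Jun* on chromosome 4 (95049034 to 95052222, minus strand), *Atf3* on chromosome 1 (191170296 to 191218039, minus strand), *Ier3* on chromosome 17 (35821684 to 35822923, plus strand) and *Nr4a1* on chromosome 15 (101254269 to 101274795, plus strand). *Fosb* lies on chromosome 7 (19302696 to 19310051, minus strand), and *Junb* (84974484 to 84978718, minus strand), *Jund* (70698949 to 70700616, plus strand) and *Ier2* (84661331 to 84662852, minus strand) on chromosome 8. *Jun*, *Jund*, *Junb* and *Atf3* overlap *Junos*, *Gm11175*, *Prdx2* and *Gm24748* on the opposite strand, and whether the counting used strand is not given in the sources used here.

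The promoter windows of the genes on which the results below turn are shown so that the *Fos*, *Jun*, *Atf3*, *Ier3* and *Nr4a1* starts can be compared. Each runs 5′ to 3′ on the gene's strand from 250 bases before to 50 after the start (RefSeq, GRCm38.p6), and capitals mark a match to a searched motif on either strand. The *Atf3* and *Nr4a1* windows lie at starts inside the gene as GENCODE bounds it, and the *Jund* window, counted below but not shown, lies wholly before the GENCODE gene (chr8:70697489-70697788, plus strand). The windows are chr12:85473640-85473939 (plus strand) for *Fos*, chr4:95052173-95052472 (minus) for *Jun*, chr1:191183284-191183583 (minus) for *Atf3*, chr17:35821463-35821762 (plus) for *Ier3* and chr15:101266596-101266895 (plus) for *Nr4a1*.
Fos: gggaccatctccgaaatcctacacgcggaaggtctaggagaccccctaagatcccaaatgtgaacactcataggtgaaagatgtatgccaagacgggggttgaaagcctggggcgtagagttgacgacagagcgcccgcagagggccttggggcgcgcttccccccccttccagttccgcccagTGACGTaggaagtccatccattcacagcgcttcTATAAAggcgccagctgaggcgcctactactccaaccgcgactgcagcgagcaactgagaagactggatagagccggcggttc
Jun: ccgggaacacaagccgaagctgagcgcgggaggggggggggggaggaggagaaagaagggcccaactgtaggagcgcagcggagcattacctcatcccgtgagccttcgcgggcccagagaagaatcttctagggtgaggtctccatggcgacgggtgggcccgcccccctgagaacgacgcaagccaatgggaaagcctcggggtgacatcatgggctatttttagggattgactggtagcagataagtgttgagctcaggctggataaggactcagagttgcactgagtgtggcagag
Atf3: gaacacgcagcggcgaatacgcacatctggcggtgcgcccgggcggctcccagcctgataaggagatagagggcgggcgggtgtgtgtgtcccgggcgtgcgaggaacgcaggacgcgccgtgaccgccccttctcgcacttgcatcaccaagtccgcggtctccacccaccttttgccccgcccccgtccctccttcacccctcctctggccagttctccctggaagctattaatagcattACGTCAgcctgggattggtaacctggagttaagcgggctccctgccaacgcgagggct
Ier3: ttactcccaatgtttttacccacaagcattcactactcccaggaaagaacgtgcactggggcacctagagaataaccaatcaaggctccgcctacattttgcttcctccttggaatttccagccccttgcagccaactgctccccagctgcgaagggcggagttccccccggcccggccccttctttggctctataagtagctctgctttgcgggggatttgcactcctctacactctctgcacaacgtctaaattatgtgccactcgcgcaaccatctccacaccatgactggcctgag
Nr4a1: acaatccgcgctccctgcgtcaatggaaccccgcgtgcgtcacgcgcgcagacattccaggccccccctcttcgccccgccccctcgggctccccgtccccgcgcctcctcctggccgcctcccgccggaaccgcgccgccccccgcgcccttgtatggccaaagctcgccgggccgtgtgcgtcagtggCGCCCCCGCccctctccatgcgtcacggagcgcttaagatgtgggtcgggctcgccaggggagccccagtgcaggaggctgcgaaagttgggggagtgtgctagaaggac

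The motifs were TGACGTCA and its core TGACGT (the cAMP response element), TGAGTCA and its reverse complement TGACTCA (the AP-1 site), GCGGGGGCG (the EGR site), TATAAA and the CArG box bound by serum response factor. TGACGT was found 66 bases before the *Fos* start and, on the other strand, 8 bases before the *Atf3* start, so in 2 of the 8 members with a window, and in 7.51% of 32851 windows. TATAAA stands 33 bases before the *Fos* start and at the *Junb* start (13.6% of windows), and GCGGGGGCG 60 bases before the *Nr4a1* start and 50 before the *Fosb* start (2.91% of windows). No match to TGACGTCA, to the AP-1 site or to a CArG box lies in the 8 windows, against 1.79%, 5.20% and 1.63% of windows, which says nothing of sequence outside them. The *Jun* and *Ier3* windows hold none of these motifs. A match is a run of letters, not a measured binding site.

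Cells were assigned to endothelial cells (ECs), fibroblasts (FBs), mural cells (smooth muscle cells and pericytes), macrophages or B cells when at least 75% of their marker UMIs (unique molecular identifiers, 1 per captured RNA molecule) over 5 lists of 10 markers belonged to that class. Of 3892, 2231 and 792 cells with at least 200 genes, 91.1%, 94.0% and 84.6% were assigned, and 18 cells carried a barcode that another library also has. There were 1001, 1748 and 293 ECs, 1259, 111 and 199 FBs, 358, 62 and 35 mural cells, and 901, 177 and 74 macrophages at 0, 2 and 12 weeks. B cells numbered 27 in the healthy phase, 0 of 2231 cells at 2 weeks (3 cells would be 0.134%, and the Clopper-Pearson upper limit is 0.165%) and 69 at 12 weeks. The median cell had 2589, 1495 and 1434 UMIs, and cells with over 10% mitochondrial UMIs made up 5.04%, 9.32% and 17.2% of the libraries. None of the 10 genes with the largest fold over the other classes in any class was a gate marker of another class. The gate itself makes that outcome likely, so it is no independent check. Some RNA of other cells was present: the 6 neutrophil markers summed to 21193 UMIs per 1000000 UMIs of the class (CPM) in heart failure macrophages, all 6 detected, against 2343 at 0 weeks (all 6) and 1751 at 2 weeks (5, *Ngp* at 0). The 5 erythroid markers summed to 3039 CPM in heart failure ECs, with *Alas2* at 0, and to 2841 CPM in healthy mural cells. The EC gate markers summed to 1499, 1736 and 1036 CPM in mural cells, against 6943, 8117 and 8433 in ECs. Of healthy-phase markers outside the gate, *Ramp2* was at 614 CPM in ECs and 288 in FBs, and *Ptprb* at 499 in ECs and 322 in mural cells. *Mfap5* (2081 CPM in FBs) and *Tyrobp* (2304 in macrophages) were at most at 70.1 CPM in other classes. *Serping1* was at 1161 in FBs and 210.4 in mural cells, and *Ndufa4l2* at 805 in mural cells and 105 in FBs. *Steap4* was at 109 in mural cells and 12.9 in FBs. *Ptprc* was at 208 in macrophages and 397 in B cells, and *Cd74* at 20545 and 22125, so neither separates these classes.

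In the healthy phase the 10 genes together held 2.22% of the UMIs of ECs, 2.03% in mural cells, 1.76% in FBs, 1.07% in macrophages and 0.472% in B cells. ECs had the highest level of *Fos*, *Jun*, *Junb*, *Jund*, *Ier2* and *Ier3*, mural cells of *Fosb*, *Atf3* and *Nr4a1*, and FBs of *Egr1*. Neighbours in that order could not be separated by counting error for *Junb* between ECs and mural cells, *Jund* between ECs and macrophages, *Atf3* between mural cells and ECs, and *Egr1* among FBs, mural cells and ECs. Lower in the order the same held for *Jund* and *Ier2* between mural cells and FBs, *Ier2* between macrophages and B cells, and *Nr4a1* between B cells and macrophages. *Fos* spanned 28.3-fold from ECs to B cells, and *Jund*, the Jun protein known for its steady expression, spanned 1.63-fold. *Nr4a1* was the member with ECs at the bottom (314 CPM), beside macrophages (320.5 CPM), whose interval overlaps theirs, while B cells stood at 421 CPM. Since 1 end of each RNA was counted, levels are compared between classes and phases and not between genes.

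**Figure D1:**
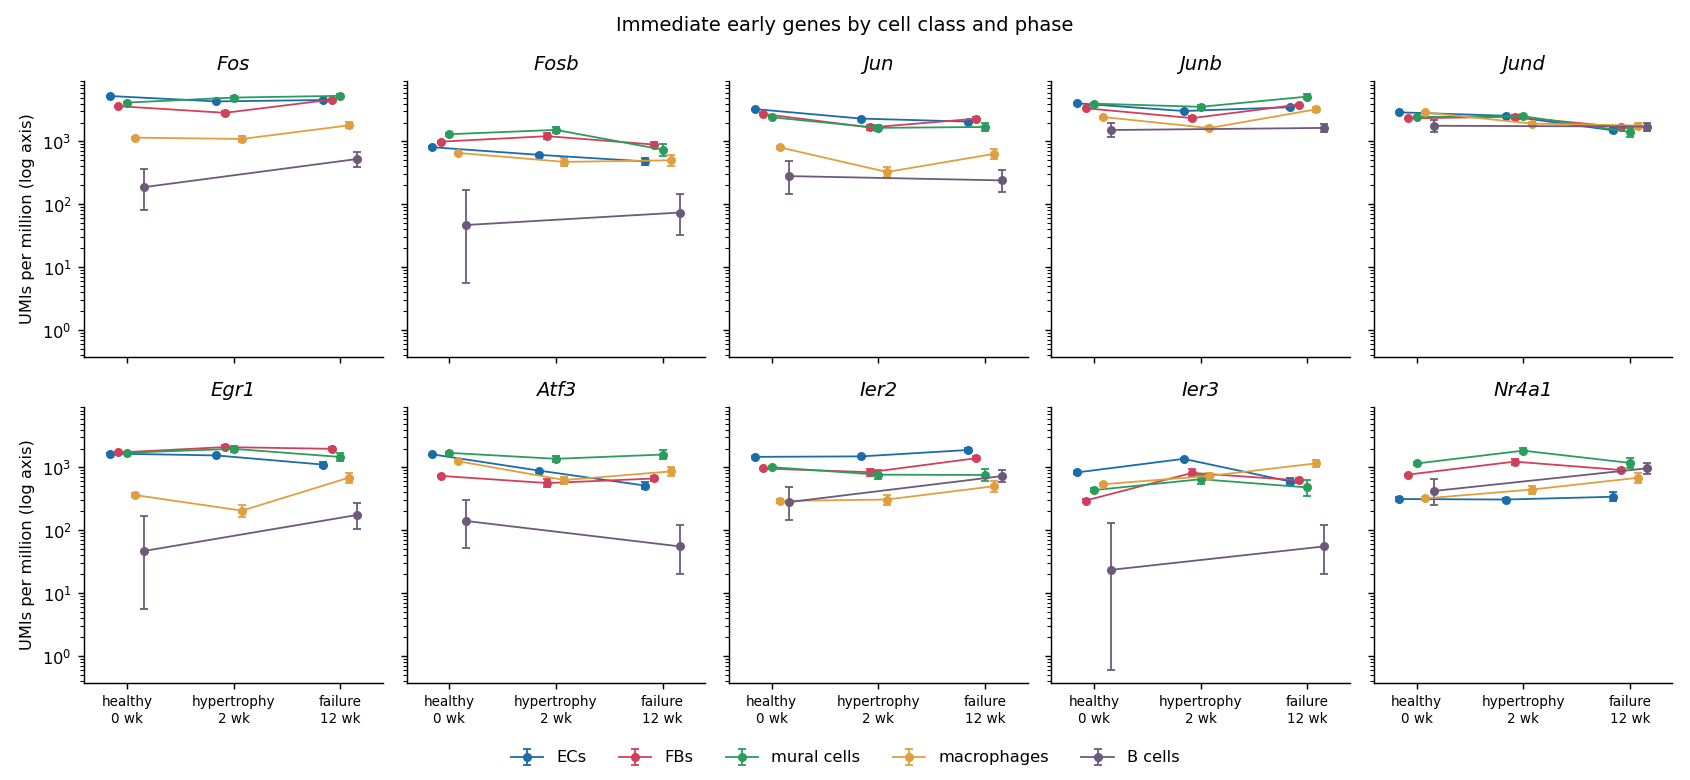
Level of each of the 10 genes in CPM (log scale) by cell class at 0, 2 and 12 weeks of TAC, 1 point per library with its 95% Poisson interval. *Fos* in ECs stands at 5283, 4334 and 4562 CPM, far above B cells at 187 and 525 CPM, and *Jund* differs little between classes.

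Taken as a sum, the members were lower in ECs at both times, while the other classes differed in direction. In ECs the sum was 22204 CPM in the healthy phase, 18474 at 2 weeks and 16571 at 12 weeks, ratios to healthy of 0.832 (0.823 to 0.841) and 0.746 (0.729 to 0.764). FBs had 17560, 16114 and 18935 CPM, ratios of 0.918 (0.891 to 0.945) and 1.08 (1.06 to 1.10). The FB ratio at 2 weeks turned to 1.01 without the 5% of cells with the most UMIs. FBs with over 10% mitochondrial UMIs made up 3.18%, 37.8% and 17.1% of the class, and their part in these ratios was not tested beyond leaving them out. Macrophages were below healthy at 2 weeks and above it at 12, with 10716, 7764 and 11850 CPM and ratios of 0.724 (0.698 to 0.752) and 1.11 (1.06 to 1.16). Mural cells, at 20336, 20837 and 19822 CPM, had ratios whose intervals hold 1 at both times. B cells had 4719 CPM in the healthy phase and 6181 at 12 weeks, a ratio of 1.31 (1.12 to 1.54). Both contrasts use the same healthy library, so they are not independent of each other. Over all cells of a library, with classes mixed, the ratios were 0.982 and 0.904.

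In ECs at 2 weeks 8 of the 10 members were below healthy, and none was past 2-fold, against 4.54% of 10255 genes at least 2-fold higher and 5.44% at least 2-fold lower (genes with at least 20 UMIs over both phases). The members' median log2 ratio was -0.23, against 0.02 over all genes. FBs at 2 weeks had 1 member at least 2-fold higher, *Ier3*, against 10.5% of genes, and none lower, against 12.5%. Mural cells had none past 2-fold, against 6.09% of genes higher and 12.01% lower. Macrophages had 1 lower, *Jun*, against 13.6% of genes, and none higher, against 11.1%, with a median log2 ratio of -0.53 against -0.01. These shares are near or below those of all genes, so 2-fold counts set the members apart in no class at 2 weeks. The shares join genes of unlike counting depth. In FBs at 2 weeks 10003 genes were tested and 445 had at least 100 UMIs in both phases, as every member did. No share at matched depth was computed, here or at 12 weeks.

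At 12 weeks ECs had 1 member at least 2-fold lower, *Atf3*, against 8.23% of genes, and none higher, against 9.45%. Their median log2 ratio was -0.53, with 0.10 over all genes. FBs had 1 higher, *Ier3*, against 7.03% of genes, and none lower, against 6.51%. Mural cells again had none, against 9.55% higher and 21.6% lower. In macrophages *Ier3* and *Nr4a1* were at least 2-fold higher, against 11.4% of genes, and no member was lower, against 15.3%. B cells had 4 of 7 members with enough UMIs at least 2-fold higher, *Fos*, *Egr1*, *Ier2* and *Nr4a1*, against 11.03% of 934 genes, and none lower, against 4.60%. The B cell counts are small: 202 member UMIs from 27 healthy cells and 671 from 69. The minimum of UMIs is applied to both phases together, and heart failure B cells held 108555 UMIs against 42803 in healthy ones. *Egr1* met it with 2 healthy and 19 heart failure UMIs, and its interval (0.904 to 33.2) holds 1. *Fosb*, *Atf3* and *Ier3* fell short of it, at ratios of 1.58, 0.394 and 2.37 whose intervals hold 1. The count of 4 of 7 therefore depends in part on that minimum. B cells with over 10% mitochondrial UMIs made up 0% of the class in the healthy phase and 23.2% at 12 weeks.

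**Figure D2:**
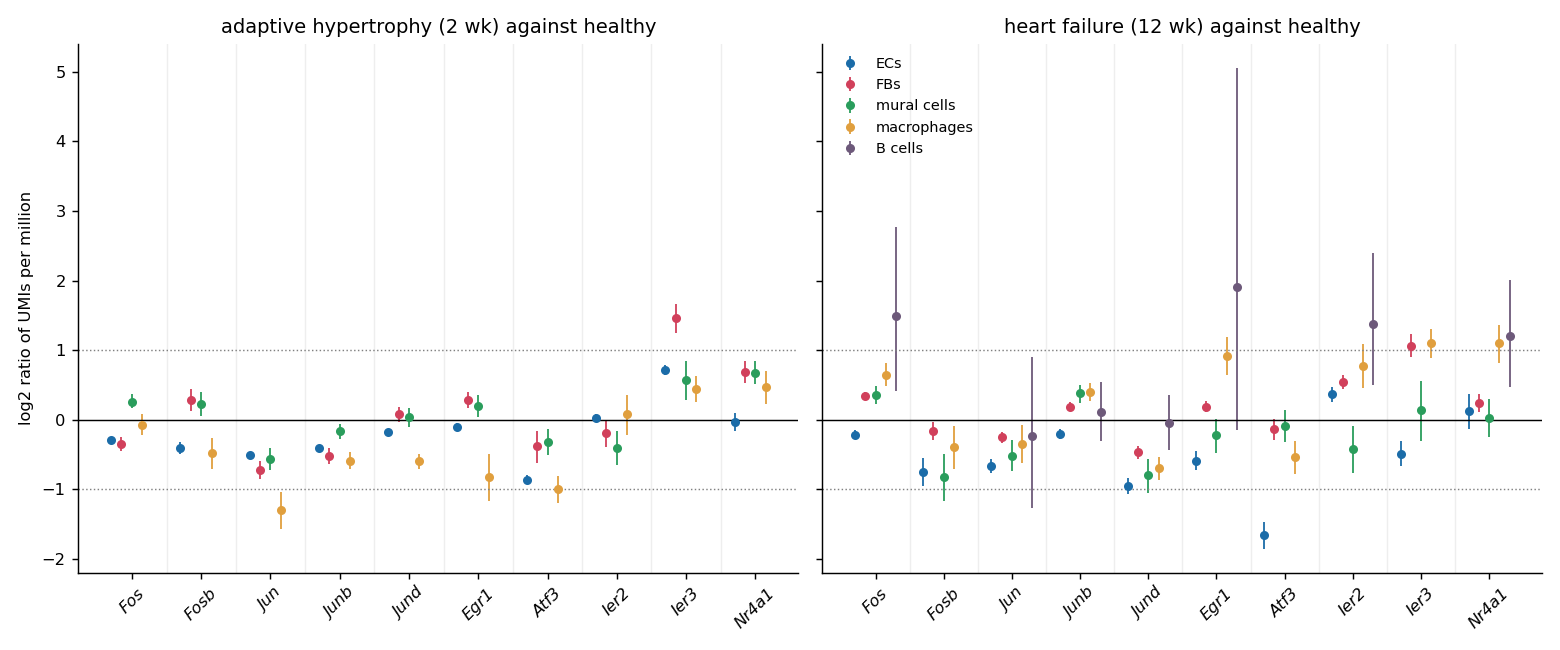
Log2 ratio (y axis) of each gene's level at 2 weeks (left) and 12 weeks (right) to the healthy level, 1 point per class with its 95% counting interval. The solid line marks no difference and the dotted lines 2-fold, and B cell pairs with under 20 UMIs are left out. *Ier3* lies above the line in all 4 classes at 2 weeks, *Jun* below it in the same 4, and *Atf3* in ECs lies lowest, at a ratio of 0.317, at 12 weeks.

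*Fos* and *Fosb* encode the Fos proteins, which pair with Jun proteins to form AP-1. *Fos* was lower in ECs, at 5283, 4334 and 4562 CPM (ratios of 0.820 and 0.864). In mural cells it was higher, at 4149, 4989 and 5315 CPM (1.20 and 1.28), but the 2-week ratio was below 1 under 2 of the 12 alternatives tried, at its lowest 0.977 without the 5% of cells with the most UMIs. In FBs it was 3639.8, 2852 and 4629 CPM, lower at 2 weeks (0.784) and higher at 12 (1.27, 1.22 to 1.32). Macrophages had 1147, 1094 and 1800.1 CPM, so healthy and 2 weeks agree within counting error and 12 weeks stands at 1.57 (1.40 to 1.76). B cells, with 8 and 57 UMIs, had 187 and 525 CPM, a ratio of 2.81 (1.33 to 6.82). *Fosb* was lower at 12 weeks in ECs (809, 611 and 480.4 CPM) and mural cells (1302, 1526 and 739 CPM), with ratios of 0.594 and 0.567. In FBs *Fosb* was 991, 1212 and 891 CPM and in macrophages 656, 472 and 500.3 CPM, so that its 12-week ratio was below 1 in each of these 4 classes. As a mean over cells it turned to 1.13 in FBs and 1.10 in macrophages, and the mural ratio at 2 weeks (1.17) turned to 0.961 under median-of-ratios scaling.

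The Jun proteins are the partners of Fos, and JUN and JUNB differ in how strongly they activate AP-1 targets. *Jun* was the 1 member whose counting intervals lay below 1 in ECs, FBs, mural cells and macrophages at both times, although as a mean over cells its macrophage ratio at 12 weeks was 1.20. Its levels were 3272, 2308 and 2067 CPM in ECs, 2739, 1668 and 2299.9 in FBs and 2423, 1643 and 1698 in mural cells. Macrophages had 800.4, 326 and 631 CPM, a ratio of 0.407 (0.338 to 0.487) at 2 weeks. That ratio rests on 127 UMIs in 177 cells. *Junb* was lower in the 4 classes at 2 weeks, from 0.667 in macrophages to 0.891 in mural cells. At 12 weeks it was lower in ECs (4041 to 3506 CPM, 0.868) and higher in FBs (3373 to 3853 CPM, 1.14), mural cells (3991 to 5171 CPM, 1.30) and macrophages (2447 to 3236 CPM, 1.32), with the mural ratio at 0.939 as a mean over cells. *Jund* at 12 weeks was lower in all 4, at 1504 CPM in ECs (2902 healthy, 0.518), 1685 in FBs (2329.7, 0.723), 1410.4 in mural cells (2453, 0.575) and 1789 in macrophages (2895, 0.618). B cells held 1776 and 1723 CPM of *Jund*, a ratio of 0.970 whose interval holds 1.

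*Atf3*, a stress-induced factor of the ATF/CREB family that can pair with Jun proteins, had the largest drop among the members in ECs. Its EC levels were 1616, 889.9 and 513 CPM, ratios of 0.551 (0.526 to 0.577) and 0.317 (0.277 to 0.362). After thinning every cell to 1000 UMIs, 62.2%, 38.5% and 27.7% of ECs had an *Atf3* UMI (77.9%, 43.2% and 27.3% unthinned). No class lacks these genes, so the lowest class, B cells, serves as the comparison, with 11.1% and 7.89% thinned at median depths of 1443 and 1167 UMIs, against 2235, 1508 and 1330 in ECs. Macrophages had 1256, 629 and 865 CPM, FBs 733, 563 and 666 and mural cells 1705, 1370.3 and 1602. At 12 weeks the FB and mural intervals hold 1, and the EC interval lies below those of FBs, mural cells and macrophages.

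*Egr1*, a zinc-finger factor of growth and stress responses, split by class. ECs had 1663, 1550.0 and 1109 CPM (0.932 and 0.666), and FBs 1728, 2106 and 1976 (1.22 and 1.14). In macrophages it was 362, 205 and 685 CPM, so the 2 weeks level was below healthy (0.567, 0.446 to 0.713) and the 12 weeks level above it (1.89, 1.56 to 2.28). Mural cells had 1714, 1975 and 1468 CPM, the 2-week ratio of 1.15 turning to 0.944 under median-of-ratios scaling and the 12-week interval holding 1. The B cell ratio of 3.75 rests on 2 healthy UMIs, and its interval runs from 0.904 to 33.2.

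*Ier2* and *Ier3* encode small early response proteins, and *Ier3* is known for a part in cell survival. *Ier2* was higher at 12 weeks in ECs (1472, 1498 and 1893 CPM, 1.29), FBs (961, 839 and 1403 CPM, 1.46) and macrophages (292, 308 and 500.3 CPM, 1.71). Mural cells went the other way, with 1009, 766 and 758 CPM and ratios of 0.759 and 0.751. *Ier3* was higher at 2 weeks in each of the 4 classes: ECs at 832, 1369 and 596 CPM (1.64), FBs at 297, 818 and 623 (2.75, 2.38 to 3.16), mural cells at 435, 649 and 479.7 (1.49) and macrophages at 539.5, 732 and 1158 (1.36). At 12 weeks ECs stood below healthy (0.715, 0.629 to 0.811), while FBs (2.09, 1.87 to 2.34) and macrophages (2.15, 1.85 to 2.48) stood above it. The share of FBs with an *Ier3* UMI, thinned, was 22.8%, 48.8% and 37.5% (45.1%, 62.2% and 58.3% unthinned), with 3.70% and 10.5% of B cells.

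*Nr4a1*, an orphan nuclear receptor, had no clear phase difference in ECs (314, 308 and 341 CPM, both intervals holding 1). Within ECs split by markers as described further on, it was lower in artery-like cells at 2 weeks (0.752, 0.590 to 0.957) and in capillary-like cells at 12 (0.766, 0.583 to 0.990). At 2 weeks it was higher in FBs (768 to 1236 CPM, 1.61), mural cells (1155 to 1848 CPM, 1.60) and macrophages (320.5 to 444 CPM, 1.39). At 12 weeks the levels were 909, 1180.1 and 685 CPM, with macrophages at 2.14 (1.76 to 2.58) and the mural interval holding 1. In B cells it was 421 and 967 CPM (2.30, 1.39 to 4.03).

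The 10 genes did not move as a block. At 2 weeks 4 of 10 lay on the same side of 1 in ECs, FBs, mural cells and macrophages, *Ier3* above and *Jun*, *Junb* and *Atf3* below, and 6 were mixed. All genes tested gave 29.1% of 5656 on one side. At 12 weeks it was 5 of 10, *Nr4a1* above and *Fosb*, *Jun*, *Jund* and *Atf3* below, with 26.8% of 5451 genes. Of these, *Jund* kept its side in the 4 classes under each of the 12 alternatives tried. *Nr4a1* counts as above through a mural ratio of 1.02, which stayed above 1 under 6 of 12 and was 0.683 after thinning. *Fosb* in FBs stayed below 1 under 9 of 12, and *Jun* in macrophages, *Fosb* in macrophages and *Atf3* in mural cells under 11 of 12 each. By counting intervals, 12 of 40 member and class pairs were higher at 2 weeks, 22 lower and 6 held 1, and at 12 weeks 18 of 47 were higher, 19 lower and 10 held 1. The share of all genes by this rule was not computed, and intervals narrow as UMIs rise. These counts therefore do not set the members apart from other genes.

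The number of members detected per cell did not always follow the summed levels. It was lower at 12 weeks in ECs and alike at all times in FBs. In mural cells, whose summed ratio at 12 weeks was 0.975, it was lower at 12 weeks after thinning to 1000 UMIs. That mural share rests on 26 cells, with an interval of 48.2% to 85.7%. Thinned to 500 UMIs, the mural shares were 62.8%, 56.5% and 55.9%, the last with an interval (37.9% to 72.8%) that holds the healthy share. Thinned to 1000 UMIs, at least 5 members were detected in 88.0%, 76.4% and 63.9% of ECs (1001, 1294 and 191 cells deep enough, with 454 and 102 left out at 2 and 12 weeks). FBs gave 88.1%, 89.0% and 88.7%, mural cells 91.6%, 91.8% and 69.2% and macrophages 48.9%, 35.6% and 63.5%, the 12 weeks values resting on 168, 26 and 52 cells. B cells gave 11.1% and 23.7%. The median EC spent 2.20%, 1.63% and 1.23% of its UMIs on the members, and the lower quartile went from 1.45% to 0.829% and 0.293%. The EC level moved with depth: ECs up to the median UMI count held 24081, 17189 and 11938 CPM and deeper ECs 21461, 18930 and 18336. The part of depth in the EC ratios was not tested beyond the thinning.

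**Figure D3:**
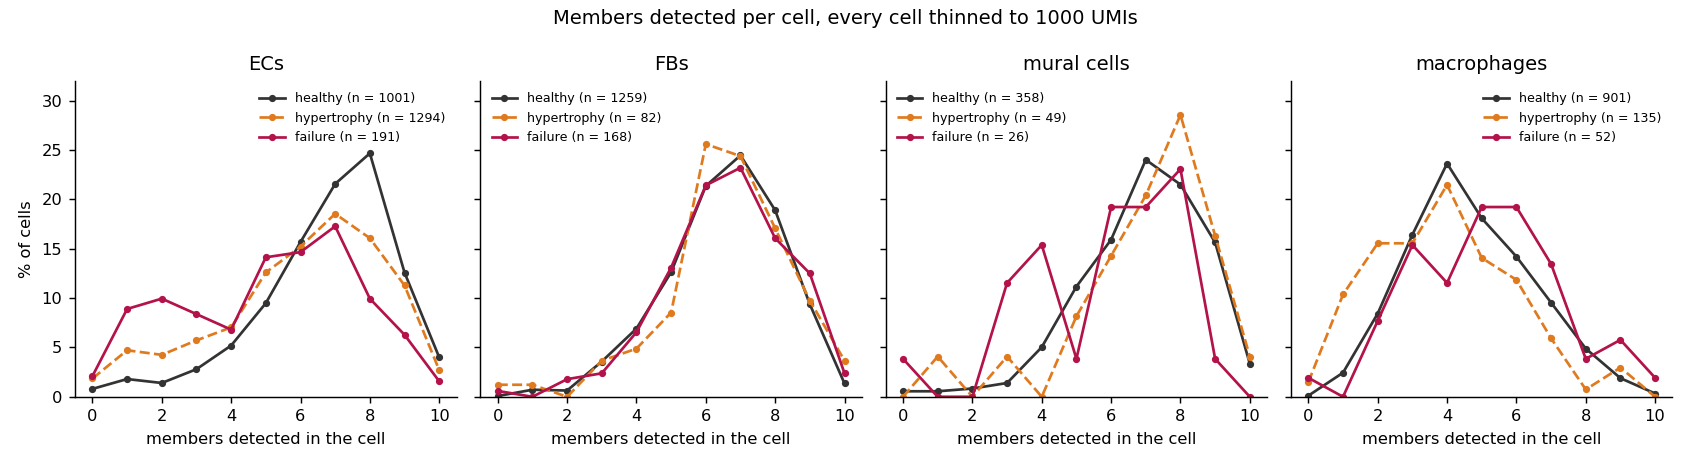
Percent of cells (y axis) by the number of members detected, from 0 to 10 (x axis), each cell thinned to 1000 UMIs, by class and phase. ECs shift toward fewer members from 0 to 12 weeks, with at least 5 detected in 88.0%, 76.4% and 63.9% of cells, while FBs stay between 88.1% and 89.0%.

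Within ECs, cells were split by which of 3 marker lists (artery, capillary, or vein and endocardium) held most UMIs. Capillary-like ECs, 84.7%, 86.2% and 72.7% of ECs, had a summed ratio of 0.834 (0.824 to 0.844) at 2 weeks and 0.672 (0.652 to 0.693) at 12. Artery-like ECs, 80, 114 and 43 cells, gave 0.758 and 0.907, and the vein and endocardium group 1.02 and, in 12 cells, 0.446. *Atf3* at 12 weeks was lower in each of the 3, at 0.440, 0.219 (0.178 to 0.265) and 0.448. Smooth muscle-like cells had summed ratios of 1.21 and 1.10 and pericyte-like cells 0.884 and 0.827, in 26 and 16 and in 36 and 19 cells, so the mural average joins opposite directions. Cardiomyocyte markers (7) in ECs summed to 786, 556 and 185 CPM, and without cells that held over 1% cardiomyocyte and erythroid marker UMIs the EC ratios were 0.833 and 0.748.

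Macrophages with any of *Folr2*, *Lyve1*, *Timd4* or *Cd163* detected, genes of resident cardiac macrophages, made up 55.8%, 10.2% and 36.5% of the class. Their summed ratio was 1.20 (1.11 to 1.29) at 2 weeks in 18 cells, and that of the rest 0.721 (0.689 to 0.754) in 159 cells. *Jun* at 2 weeks was 1.03 (0.765 to 1.37) in the first and 0.379 in the rest. At 12 weeks *Ier3* stood at 2.81 and 2.11. Detection of these markers depends on depth, so the split does not compare fixed populations. Without the 3, 4 and 6 macrophages with over 1% neutrophil marker UMIs, a step added after seeing the data, the summed ratios were 0.726 and 1.15. Cells with over 10% mitochondrial UMIs made up 2.89%, 14.1% and 28.4% of macrophages and held 10471, 9082 and 17759 CPM of the members.

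Other gene lists did not all follow the members. Heat shock genes (14), which report protein stress and also respond to warm digestion, were below healthy in ECs at both times, at 20075, 11260 and 10590 CPM (0.561 and 0.527), with 13 and 14 of 14 below 1. In macrophages the summed ratios were 0.656 and 0.479, with 10 of 14 at least 2-fold lower at 12 weeks, against 15.3% of all genes, where the members' sum stood at 1.11. FBs gave 0.748 and 0.788 and mural cells 0.978 and 0.876. B cells gave 0.973 (0.868 to 1.09) at 12 weeks, with 6 of 9 genes above 1. *Hsph1* in ECs was at 144, 39.0 and 41.3 CPM and *Hsp90aa1* in macrophages at 2170.2 and 625 CPM at 0 and 12 weeks. *Hspa1b* in FBs was higher at 2 weeks (145 to 300.4 CPM, 2.07) and lower at 12 (51.1 CPM, 0.351).

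**Figure D4:**
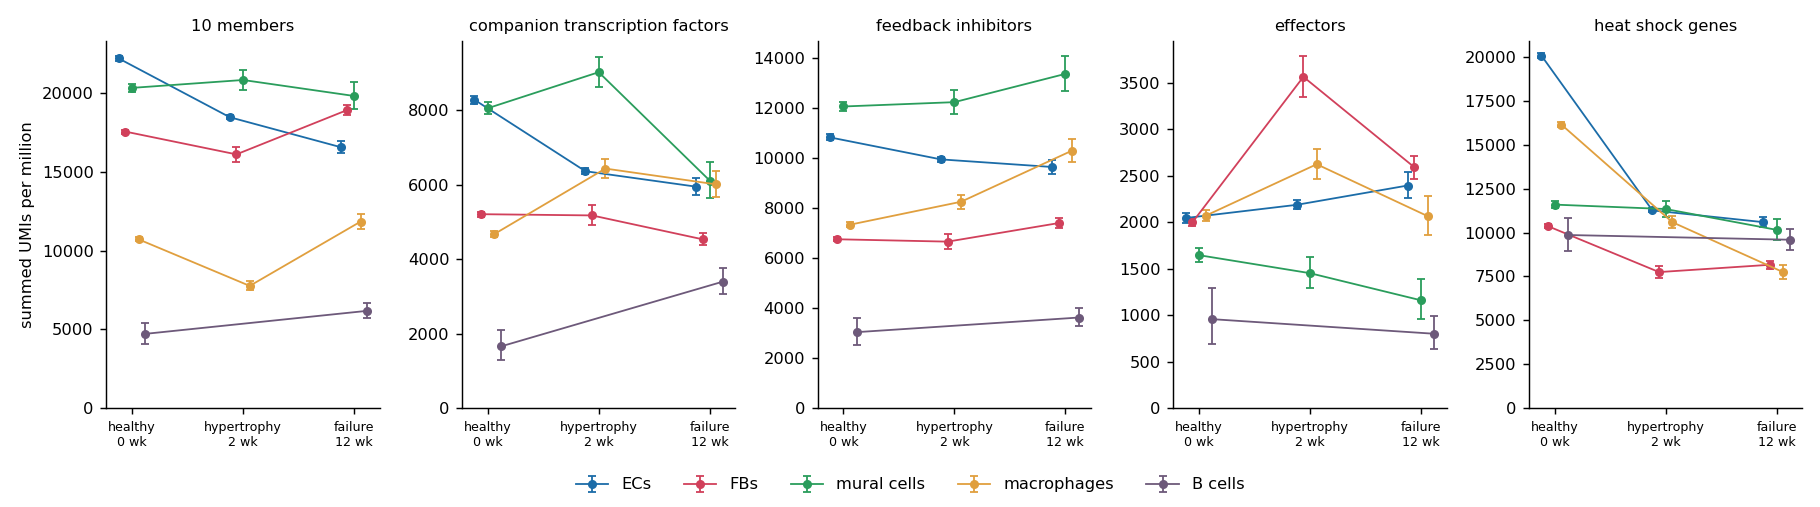
Summed level in CPM (y axis, linear, from 0) of the 10 members and of 4 other gene lists at 0, 2 and 12 weeks, 1 line per class, points with 95% Poisson intervals. Heat shock genes in macrophages stand at 16146, 10588 and 7739 CPM, lowest at 12 weeks, where the members stand at 11850 CPM, above their healthy 10716.

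Of 18 other early transcription factors with enough UMIs in macrophages at 2 weeks, 9 were at least 2-fold higher, against 11.1% of all genes, and 2 lower, against 13.6%. They included *Nr4a3* (63.3 to 329 CPM, 5.19), *Bhlhe40* (27.9 to 141 CPM, 5.06) and *Nr4a2* (117 to 329 CPM, 2.82) above, and the Kruppel-like factors *Klf2* (0.369) and *Klf4* (0.439) below. FBs at 2 weeks had 3 of 17 higher, *Nr4a2* (3.21), *Nr4a3* (2.75) and *Fosl2* (2.22), and 1 lower, *Klf2* (0.494), against 10.5% and 12.5% of all genes. ECs had none past 2-fold at 2 weeks and 4 of 17 lower at 12, against 8.23% of all genes, with *Csrnp1* at 0.242 and *Fosl2* at 0.393. Among feedback inhibitors, which switch the response off again, 5 of 20 were lower in ECs at 12 weeks, against the same 8.23%, *Trib1* at 0.176 and *Dusp2* at 0.212 among them. *Per1*, a clock gene that glucocorticoids also induce, was higher at 2 weeks in ECs (3.43), FBs (3.81) and macrophages (2.10). Of the 10 effector genes, *Ctgf*, a matricellular growth factor, was at 167 CPM in healthy FBs and 1378 at 2 weeks (8.26, 7.28 to 9.36) and stood at 462 at 12. *Ptgs2*, the inducible cyclooxygenase, was at 38.8 CPM in healthy macrophages and 259 at 2 weeks (6.68). Of 11 upstream kinases and factors with enough UMIs in mural cells at 12 weeks, 1 was at least 2-fold higher and 4 lower, against 9.55% and 21.6% of all genes. In each other class and time with enough UMIs, at most 1 was higher and at most 2 lower.

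Of 8 reference genes, *Malat1*, a nuclear RNA, was past 2-fold lower in each class at 2 weeks, at 0.271 in ECs, 0.362 in FBs, 0.134 in mural cells and 0.497 in macrophages. Its level in mural cells was 104599 CPM in the healthy phase and 14039 at 2 weeks, and the median log2 ratio of well-counted genes there was 0.29. It was 0.16 in macrophages, 0.05 in FBs and -0.01 in ECs. The part of nuclear RNA content in the members' ratios was not tested.

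Across the 14 class and phase groups that hold cells, the genes whose level followed the members' sum most closely, of 7879 genes with at least 200 UMIs, were *Frmd4a* (r = 0.965), *Lzts2* (0.964), *Tfpi* (0.963), *Rab12* (0.963), *Rbfox2* (0.961), *Ttc28* (0.959), *Gm26802* (0.957), *Rhob* (0.956), *Gkap1* (0.956) and *Parva* (0.955). The groups share libraries and classes, so these values describe the pattern of levels. Apart from *Rhob*, these genes had no UMI in B cells and at most 3 UMIs in macrophages of each later phase. Their r values therefore rest in part on classes near the floor of counting. Whether these genes follow the sum within a class was not tested. Between members, r over the same groups ran from -0.15 (*Jund* with *Nr4a1*) to 0.96 (*Fos* with *Egr1*), and *Junb* with *Jund* had 0.03. Within cells thinned to 1000 UMIs, the median r of the 45 member pairs in ECs was 0.20, 0.30 and 0.32, and *Fos* with *Junb* was the highest pair at each time (0.48, 0.51 and 0.62). In FBs the median was 0.12, 0.07 and 0.10.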

How the data were processed

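The authors deposited raw UMI counts per gene and cell, 1 matrix per phase, made per the submitters' processing notes with Cell Ranger 2.0.0 against mm10. Counts are not normalized, and each phase is 1 library. The weeks of TAC come from the study's methods.

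Cells with at least 200 genes were kept and assigned by summed marker UMIs (75% of the marker UMIs over 5 lists of 10 genes, at least 3 UMIs and 2 markers). The rest stayed ungated. No doublet caller was run. Of mixed cells, the gate left out only those in which no class held 75% of the marker UMIs, so less mixed cells remain. Cells with under 3 UMIs or under 2 markers of their leading class also stayed ungated, mixed or not. As an alternative, the 5% of cells with the most UMIs were left out. Levels are pooled UMIs per 1000000 UMIs of a class (CPM), with exact Poisson intervals, ratios have exact conditional binomial intervals and shares Clopper-Pearson intervals, all at 95%. A gene was called past 2-fold with at least 20 UMIs over both phases, and 1 CPM was added on the log2 scale. The ratio script was tested on simulated data. Python 3.11.15, numpy 2.4.6, scipy 1.17.1, pandas 2.3.3 and matplotlib 3.10.9 were used.

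The 10 genes and all lists were chosen with earlier results of these data known. Named from the lists were at most 3 genes each way per list, class and contrast by log2 ratio, among those with at least 50 UMIs and past 2-fold, and the 10 genes most correlated with the members' sum. Libraries held 12287823, 4465929 and 1712728 UMIs, and the 10 genes 218630, 78033 and 27535 of them. Alternatives covered the gate, filters on cells, denominator, scaling, weighting, thinning, minimum of UMIs and fold. Promoter windows came from RefSeq (GRCm38.p6), matched by symbol for 8 of the 10 genes, and gene models from GENCODE M21.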

Additional observations from a re-analysis of the deposited data

Results flagged for a closer look

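Counting intervals placed 3 members on opposite sides of 1 in different classes at 12 weeks, with ratios that differed over 3-fold. *Fos* was at 2.81 in B cells and 0.864 in ECs, 3.25 times apart. *Ier2* was at 2.60 in B cells and 0.751 in mural cells, 3.46 times apart. The B cell value rests on 12 healthy UMIs and ran from 2.37 to 16.6 over the alternatives, the highest with the gate at 90%. *Ier3* was at 2.15 in macrophages and 0.715 in ECs, 3.01 times apart. With 1 library per phase, the difference between classes was not tested in any of these.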

How the results depend on the processing

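No paired analysis was possible because each phase is 1 library, and for the same reason no replicate could be left out. Of 87 member ratios with enough UMIs, 67 stayed on the same side of 1 under each alternative run. Summed ratios kept their side of 1 under each of the 12 alternatives in ECs and macrophages at both times and in FBs, mural cells and B cells at 12 weeks, in FBs at 2 weeks under 11 and in mural cells at 2 weeks under 9. Without mitochondrial, ribosomal and haemoglobin genes in the denominator, the 2-week sums were 0.866 (ECs), 1.08 (mural cells) and 0.757 (macrophages). As a mean over cells they were 0.772 (ECs) and 0.961 (mural cells), and at 12 weeks 0.648 (ECs), 0.826 (mural cells) and 1.25 (macrophages). Thinned to 1000 UMIs they were 0.800 (ECs) and 0.684 (macrophages) at 2 weeks and 0.713 (ECs) and 0.902 (mural cells) at 12. Without the 5% of cells with the most UMIs they were 0.790 (ECs), 1.01 (FBs, reversed) and 0.961 (mural cells) at 2 weeks and 0.721 (ECs), 1.10 (FBs) and 0.867 (mural cells) at 12. Scaled by median of ratios they were 0.885 (FBs), 0.840 (mural cells) and 0.651 (macrophages) at 2 weeks and 0.714 (ECs) and 0.890 (mural cells) at 12. With the gate at 90% the 2-week sums were 0.886 (FBs) and 1.13 (mural cells). At 12 weeks, ECs with at least 500 genes gave 0.765 and macrophages without cells over 10% mitochondrial UMIs 1.04. The cause of these shifts was not tested. Pairs at least 2-fold lower numbered 1 at 2 weeks, but 3 with the gate at 90% or as a mean over cells, and 2 with median of ratios, thinning or without the 5% deepest cells. At 12 weeks they numbered 1, but 2 with median of ratios, thinning or no minimum of UMIs. At 1.5-fold, 4 were higher and 6 lower at 2 weeks and 10 higher and 8 lower at 12. The share of all genes past 1.5-fold was not computed, so these counts have nothing to be judged against. Thinned to 500 UMIs, cells with at least 5 members made up 66.6%, 51.7% and 37.0% of ECs and 58.7%, 61.3% and 62.2% of FBs. They made up 62.8%, 56.5% and 55.9% of mural cells, 21.8%, 11.3% and 34.2% of macrophages and, at 12 weeks, 6.56% of B cells. Depth limits B cells most, where 3 UMIs are 70.1 CPM in the healthy phase.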

Other observations

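Cells left without a class, 346, 133 and 122 of the 3 libraries, held 21009, 18031 and 13166 CPM of the members. Their ratios to healthy were 0.858 (0.830 to 0.887) and 0.627 (0.602 to 0.652), and their heat shock sums 0.666 and 0.578. They had median counts of 2658.5, 931.0 and 763.0 UMIs, and 4.34%, 29.3% and 33.6% of them had over 10% mitochondrial UMIs. Summed neutrophil markers in them stood at 70.7 and 242 times healthy, T cell markers at 0.331 and 21.3 and neural markers at 5.91 and 2.64. The phases therefore compare unlike mixtures of cells. In these mixtures *Ier3* was at 652, 1124 and 404 CPM and *Atf3* at 1474, 929 and 494 CPM.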
